A study of Mus musculus with 6 samples.

Results

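Collagens, laminins, fibronectin and their integrin receptors make up the genes described here, together with the enzymes that hydroxylate and cross-link collagen. They were chosen by gene name alone: every collagen, laminin and integrin chain, the P4ha, Plod and Lox enzyme families, and Fn1, the fibrillins, the nidogens, Hspg2 and Serpinh1, leaving out Col1a1. Of the 14003 genes in the deposited table, 72 matched. RNA was sequenced from 3 samples of MC3T3-E1 cells, a mouse preosteoblast line with the WT genotype, that had received 200 µM sulfasalazine, and from 3 untreated control samples, all labelled 24 h. Sulfasalazine is an anti-inflammatory drug, the growth medium of all samples held serum and antibiotics, and the labels name no vehicle for either group. The series title concerns TNFα, NF-kB signalling and fracture healing.

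Collagen chains are folded and hydroxylated in the endoplasmic reticulum, secreted, and then cross-linked outside the cell, where fibrillar collagens form fibres and type IV collagen forms the network of basement membranes. Laminins are three-chain proteins of the same membranes, each built from an alpha, a beta and a gamma chain. Integrins pair an alpha with a beta subunit on the cell surface and bind cells to collagen, laminin or fibronectin. In osteoblasts the main products of this kind are type I collagen, fibronectin and the enzymes and chaperones that mature collagen.

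Values are FPKM, fragments scaled to gene length and to the number of mapped fragments. The lengths behind them did not track annotated exonic lengths. In sulfasalazine replicate 1, Lamb2 (6082 exonic bases) had 61.8 FPKM from 1615 reads, and Itgb3 (5901 exonic bases) had 11.8 FPKM from 1330 reads. Rankings of genes, ratios between genes and the cut for expression used below depend on those lengths. A ratio between groups for the same gene does not. Whole reads recovered from the FPKM steps numbered 15980935 to 21579133 per library, and control replicate 3 had the fewest. It also stood apart from the other controls on the second principal component, at -31.2 against 15.0 and 10.3, an axis that held 6.1% of the variance. The osteoblast label had mixed backing among its markers: of 10 in the table, 7 averaged below 1 FPKM, including Sp7 at 0.0241 ± 0.0418 FPKM with sulfasalazine and 0 in all 3 controls, and Col1a1 at 0.461 ± 0.251 with sulfasalazine and 0.280 ± 0.324 FPKM in controls. Spp1 and Runx2 were present, at 947 ± 104 and 18.1 ± 1.57 FPKM with sulfasalazine, against 1870 ± 309 and 23.5 ± 2.2 FPKM in controls, and both passed the test as lower (SD, n = 3 per group, as throughout).

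Matrix gene expression was concentrated in a minority of the family. A gene was taken as expressed, and was tested, when 3 or more of the 6 libraries reached 1 FPKM. This held for 35 of the 72 genes (48.6%), against 73.8% of all genes in the table. The 12 most abundant, each averaging at least 100 FPKM over the 6 libraries, were Fn1, Itga3, Col18a1, Lama5, Lamb1, Col4a1, Itgb5, Itgb1, Itgb7, Col5a1, Itgb4 and Col4a2. Of the 35, 29 were at 1 FPKM or more in every library. Itgb3 and Col15a1 reached 1 FPKM only with sulfasalazine and Col8a1 only in controls, so the filter admitted these 3 through the group where they were high. Each therefore had to differ between the groups, and their calls add no support to the counts they stand in.

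The 37 genes below the filter included many that define bone and connective tissue matrix. In 33 of them no library exceeded 1 FPKM, and in 19 none exceeded 0.1 FPKM. Serpinh1, which encodes the collagen chaperone HSP47, had 0, 2 and 2 reads in the sulfasalazine libraries and 0, 0 and 1 reads in the controls. Lox, encoding lysyl oxidase, which starts collagen cross-linking, had 10, 2 and 10 reads with sulfasalazine and 0, 5 and 1 reads in controls. The fibrillar collagen gene Col3a1 stood at 0.275, 0.162 and 0.421 FPKM with sulfasalazine and at 0, 0.0259 and 0.338 FPKM in controls. Fbn1, encoding the microfibril protein fibrillin, had at most 8 reads in any library, and Nid1, a basement membrane linker of laminin to type IV collagen, stood between 0.104 and 0.878 FPKM over the 6 libraries. Both genes of type VI collagen in the table were low too: Col6a2 did not exceed 0.0903 FPKM, and Col6a1 reached 2.00 FPKM in sulfasalazine replicate 3 alone, with 0.342 and 0.468 FPKM in the other sulfasalazine libraries and 0.0994, 0.0373 and 0.364 FPKM in the controls. In all, 24 of the 72 genes had 10 reads or fewer in every library. At that depth neither a level nor a difference can be judged. Another 26 protein-coding genes whose names match, among them Col1a2, Itga4 and Lama1, had no entry in the deposited table and were not analysed here.

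With sulfasalazine 14 of the 35 tested genes rose and 13 fell, and 8 did not pass. The test was limma on log2(FPKM + 1) over all 10338 genes that passed the filter, with Benjamini-Hochberg adjusted p under 0.05. Over those 10338 genes 66.5% passed, 37.2% as higher and 29.3% as lower, so calls were common across the whole table. The median log2 fold change of the 35 genes was -0.08, beside 0.08 over all tested genes. Their median absolute log2 fold change was 1.08, beside 0.68. With no filter, when all 72 genes entered, 15 rose and 14 fell, which is 40.3% of them beside 52.9% of all 14003 genes (30.5% higher, 22.4% lower). That fit added a rise of Itgb8 and falls of Col17a1 and Lamc3, all under 1 FPKM in every library, and lost the call of Itga6. Whether the 3 replicates of a group came from separate cultures is not in the labels, and each p-value reflects spread among these libraries alone, which could be technical. Bulk RNA cannot tell fewer cells of a kind from less RNA per cell.

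**Figure D1:**
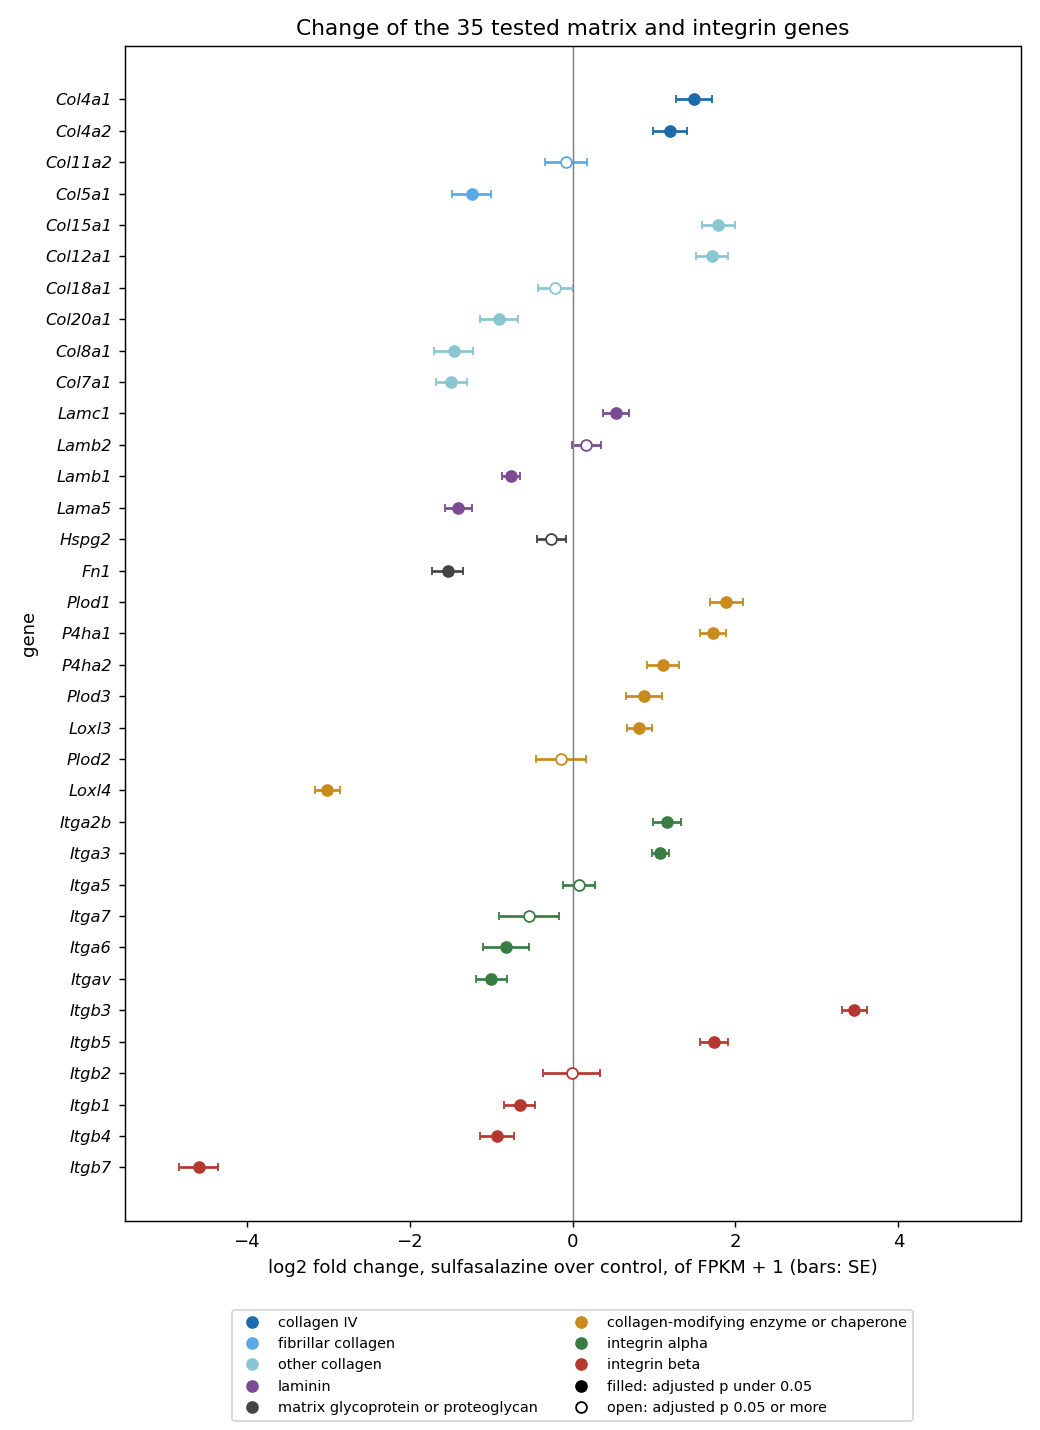
Each row is a gene and the horizontal axis is its log2 fold change, sulfasalazine over control, of FPKM + 1, with bars of 1 SE from limma; filled points passed adjusted p under 0.05 and open points did not. The chains of type IV collagen and most hydroxylases lie right of 0, Fn1, Lama5 and Loxl4 lie left, and the integrin beta genes span from -4.59 (Itgb7) to 3.46 (Itgb3).

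The genes of type IV collagen, the network collagen of basement membranes, rose together. Col4a1 (GRCm38 chromosome 8, 11198423 to 11312826) had 275, 331 and 423 FPKM in the sulfasalazine libraries and 90.7, 121 and 156 FPKM in the controls. Col4a2 (chromosome 8, 11312805 to 11449287) had 119, 135 and 173 FPKM with sulfasalazine and 48.0, 57.6 and 80.5 FPKM in the controls. Neither gene's groups overlapped, and in both groups replicate 3 was the highest. Log2 fold changes were 1.49 for Col4a1 (SE 0.22, limma adjusted p = 0.00054) and 1.20 for Col4a2 (SE 0.21, limma adjusted p = 0.0012). The genes lie head to head, with RefSeq start sites 21 bases apart on opposite strands. Within a library Col4a1 stood at 2.40 ± 0.0749 times Col4a2 with sulfasalazine and 1.98 ± 0.113 times in controls. The endothelial markers Pecam1, Cdh5 and Vwf, genes of another cell type rich in type IV collagen, averaged 0.0903 FPKM or less in both groups. Col4a5 and Col4a6, chains of other type IV networks, had at most 11 reads in a library.

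Laminin chain genes changed in opposite directions. Lama5 (chromosome 2, 180176373 to 180225859), the alpha chain found in many basement membranes, had 164, 182 and 209 FPKM with sulfasalazine and 587, 399 and 501 FPKM in controls. Lamb1, its usual beta chain partner, had 169, 195 and 205 FPKM with sulfasalazine and 315, 321 and 327 FPKM in controls. Both fell with no overlap between groups, Lama5 by 1.40 on the log2 scale (limma SE 0.16, adjusted p = 0.00014) and Lamb1 by 0.76 (SE 0.11, limma adjusted p = 0.00042). The common gamma chain gene Lamc1 had 75.0, 88.2 and 112 FPKM with sulfasalazine and 56.7, 67.9 and 62.8 FPKM in controls. It rose by a log2 fold change of 0.53 (SE 0.16, limma adjusted p = 0.017), a call lost without control replicate 1 (adjusted p = 0.055). Lamb2, an alternative beta chain, stood at 68.8 ± 11.3 FPKM with sulfasalazine and 61.3 ± 12.7 FPKM in controls and did not pass (limma adjusted p = 0.41).

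Levels of the 3 chain genes lay closer to each other in treated cells than in controls. Lama5 was 2.19, 2.07 and 1.86 times Lamc1 in the sulfasalazine libraries and 10.3, 5.88 and 7.97 times in the controls. Lamb1 was 2.25, 2.21 and 1.82 times Lamc1 with sulfasalazine and 5.55, 4.73 and 5.21 times in controls. Neither ratio overlapped between groups, and the exact two-sided permutation p of each was 0.1, the smallest that 3 libraries against 3 allow. Since Lama5 and Lamb1 were lower and Lamc1 higher without overlap, both ratios had to separate, and this p adds no support. Among 10 such ratios computed, 8 reached that p, these among them, and none can fall below 0.05. Lama3 and Lamb3, which encode laminin chains typical of epithelia, were low: Lama3 had at most 2 reads in a library, and Lamb3 had 0, 3 and 0 reads with sulfasalazine and 62, 8 and 17 in controls.

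**Figure D2:**
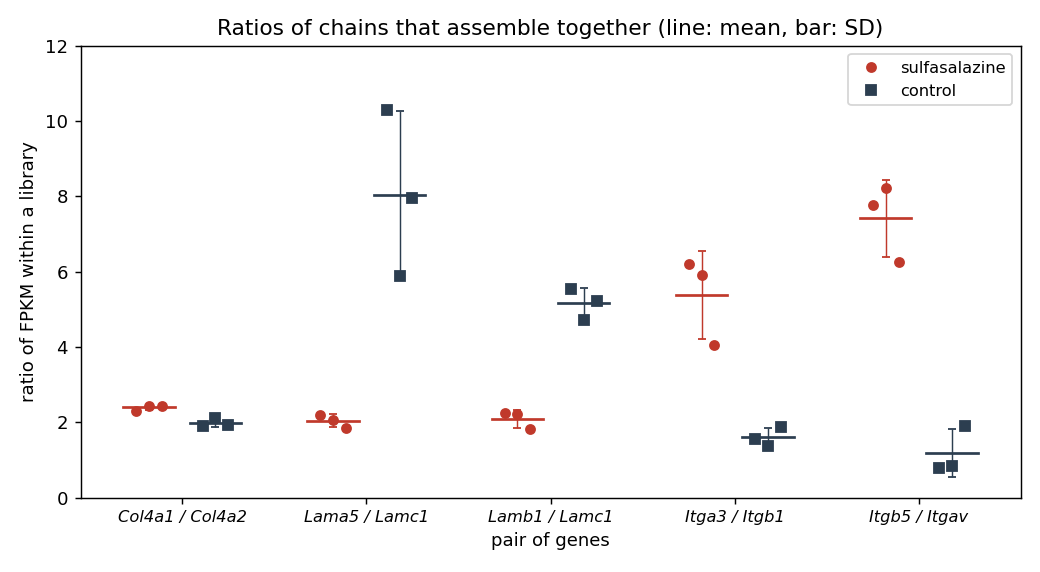
The vertical axis is the ratio of the FPKM of a pair of chain genes within a library, with 3 sulfasalazine libraries (circles) and 3 control libraries (squares) per pair, lines for means and bars for SD. Lama5 over Lamc1 averaged 2.04 with sulfasalazine and 8.06 in controls, while Itgb5 over Itgav averaged 7.42 with sulfasalazine and 1.18 in controls.

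Fibronectin and the main fibrillar collagen gene with expression were lower. Fn1 (chromosome 1, 71585520 to 71653200), encoding the adhesive glycoprotein fibronectin, had 399, 404 and 602 FPKM with sulfasalazine and 1320, 1150 and 1550 FPKM in controls, where it was the most abundant gene of the family. It fell by 1.53 on the log2 scale (limma SE 0.19, adjusted p = 0.00023), and the groups did not overlap. Col5a1, a fibrillar chain that helps to set fibre diameter, had 52.0, 56.6 and 79.8 FPKM with sulfasalazine and 123, 122 and 213 FPKM in controls. Its fall was 1.24 on the log2 scale (limma SE 0.24, adjusted p = 0.0023), and replicate 3 was again the highest in each group. Col11a2, the other fibrillar collagen gene expressed, averaged 3.49 ± 0.722 FPKM with sulfasalazine and 3.86 ± 1.48 FPKM in controls (limma adjusted p = 0.80). Of the 7 fibrillar genes in the table these were the only pair that passed the filter.

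The remaining collagens split by gene. Col18a1, whose protein carries the endostatin fragment, was the most abundant of them and had 292, 323 and 347 FPKM with sulfasalazine and 304, 318 and 528 FPKM in controls (limma adjusted p = 0.39). Without control replicate 3 its log2 fold change was 0.039. Col12a1, which coats collagen fibrils, rose to 4.84, 4.37 and 7.74 FPKM with sulfasalazine, against 0.962, 0.978 and 1.03 FPKM in controls (log2 fold change 1.71, SE 0.20, limma adjusted p = 0.00015). Col15a1, a collagen of the basement membrane zone, had 160, 108 and 69 reads with sulfasalazine, or 3.72, 2.72 and 1.80 FPKM, and 0, 2 and 4 reads in controls. Its log2 fold change of 1.79 (SE 0.20, limma adjusted p = 0.00011) became 4.19 with a pseudocount of 0.1 in place of 1 FPKM, since the pseudocount shrinks changes of low genes.

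Falls among these collagens were seen at modest levels. Col7a1, which forms anchoring fibrils below epithelia, fell to 6.04, 8.47 and 4.90 FPKM, against 20.3, 19.4 and 19.2 FPKM in controls (log2 fold change -1.49, SE 0.19, limma adjusted p = 0.00024). Col20a1 fell to 2.80 ± 0.765 FPKM, against 6.13 ± 1.5 FPKM in controls (log2 fold change -0.90, limma adjusted p = 0.0079). Col8a1, a short-chain network collagen, had 0, 2 and 14 reads with sulfasalazine and 246, 163 and 71 reads in controls (log2 fold change -1.46, limma adjusted p = 0.00081, and -3.71 with a pseudocount of 0.1). Hspg2, encoding the basement membrane proteoglycan perlecan, stood at 0.971 ± 0.285 FPKM with sulfasalazine and 1.36 ± 0.413 FPKM in controls and did not pass (limma adjusted p = 0.23).

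**Figure D3:**
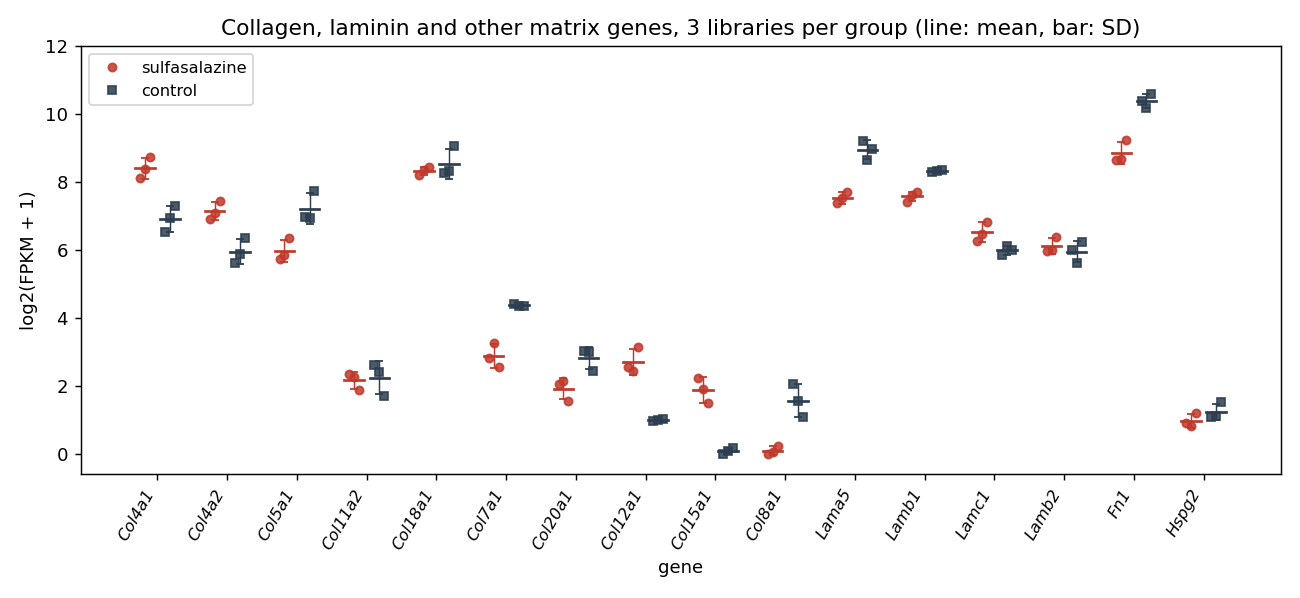
The vertical axis is log2(FPKM + 1) for each expressed collagen, laminin, fibronectin and perlecan gene, with 3 sulfasalazine libraries (circles) left of 3 control libraries (squares), lines for means and bars for SD. Col4a1 and Col4a2 sit higher with sulfasalazine and Fn1, Lama5 and Col5a1 lower, while Col18a1 overlaps between the groups.

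Prolyl and lysyl hydroxylases, which modify collagen chains before they fold and leave the endoplasmic reticulum, were higher in 4 of the 5 genes tested, beside 37.2% of all tested genes. P4ha1, encoding a catalytic subunit of prolyl 4-hydroxylase, had 69.9, 66.8 and 63.0 FPKM with sulfasalazine and 18.1, 16.2 and 24.5 FPKM in controls (log2 fold change 1.73, SE 0.16, limma adjusted p = 4.7e-05). P4ha2, encoding the second form of that subunit, had 40.2, 39.5 and 36.2 FPKM with sulfasalazine and 16.8, 13.1 and 23.6 FPKM in controls (log2 fold change 1.11, SE 0.20, limma adjusted p = 0.0014). Plod1, a lysyl hydroxylase gene, had 91.1, 102 and 131 FPKM with sulfasalazine and 25.9, 23.3 and 36.5 FPKM in controls (log2 fold change 1.89, SE 0.20, limma adjusted p = 8.0e-05). In all 3 genes the lowest treated library lay above the highest control.

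Plod3, whose enzyme also adds sugars to hydroxylysine, averaged 85.1 ± 3.10 FPKM with sulfasalazine and 47.6 ± 16.9 FPKM in controls (log2 fold change 0.88, limma adjusted p = 0.0083). Other genes, mainly Znhit1 on the opposite strand, cover 11.9% of its exons. Plod2, which hydroxylates the ends of collagen chains, had 8.13, 5.96 and 10.8 FPKM with sulfasalazine and 14.4, 8.19 and 6 FPKM in controls, with overlapping groups (limma adjusted p = 0.72). P4ha3 had 4, 0 and 5 reads with sulfasalazine and none in the controls, too few for a level. The ratio of P4ha1 to P4ha2 was 1.72 ± 0.0275 with sulfasalazine and 1.12 ± 0.105 in controls, without overlap (exact permutation p = 0.1).

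The upstream sequences of the 3 hydroxylase genes with the steepest rises are shown because the genes rose together. Hypoxia response elements are known in collagen hydroxylase promoters, and antioxidant response elements in promoters of NRF2 targets. Each is the 250 bases before the RefSeq start site on GRCm38.p6, 5′ to 3′ on the gene's strand, for P4ha1 at chr10:59323046-59323295 (plus strand), P4ha2 at chr11:54100674-54100923 (plus strand) and Plod1 at chr4:147936777-147937026 (minus strand). Capitals mark ACGTG, the core of the hypoxia response element, or TGACNNNGC, the core of the antioxidant response element, on either strand.
P4ha1: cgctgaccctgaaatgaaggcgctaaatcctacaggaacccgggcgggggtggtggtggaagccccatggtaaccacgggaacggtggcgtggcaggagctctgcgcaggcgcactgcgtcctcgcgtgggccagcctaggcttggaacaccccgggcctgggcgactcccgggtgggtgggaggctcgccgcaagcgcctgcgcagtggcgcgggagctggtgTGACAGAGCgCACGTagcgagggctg
P4ha2: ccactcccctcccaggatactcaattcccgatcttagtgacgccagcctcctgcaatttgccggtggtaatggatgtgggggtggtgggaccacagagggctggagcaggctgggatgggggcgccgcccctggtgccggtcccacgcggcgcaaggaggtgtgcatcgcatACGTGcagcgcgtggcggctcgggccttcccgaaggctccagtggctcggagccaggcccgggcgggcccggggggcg
Plod1: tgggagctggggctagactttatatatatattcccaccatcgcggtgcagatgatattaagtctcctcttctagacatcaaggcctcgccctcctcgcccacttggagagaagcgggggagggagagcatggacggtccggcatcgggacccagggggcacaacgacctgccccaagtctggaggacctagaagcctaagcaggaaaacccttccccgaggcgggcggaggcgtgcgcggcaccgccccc

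The P4ha1 window held both cores next to each other, at bases -26 to -18 for the antioxidant core and -16 to -12 for the hypoxia core, counted back from the start site. P4ha2 held the hypoxia core at bases -78 to -74, and these letters do not occur in the Plod1 window. The P4ha2 window lies inside the annotated gene, which spans 54100095 to 54131665 on chromosome 11. It is thus upstream of the RefSeq start site used here but downstream of the annotated start of the gene. Of the 35 tested genes 25 had a promoter entry. The hypoxia core was found in 5 of those 25, beside 18.5% of the 27025 genes with an entry, and the antioxidant core in 4, beside 11.5%. TGANTCA, the AP-1 element, was in 0 of the 25, beside 7.8%. None of the motifs searched overlapped another in the windows shown, and a match of letters is not a bound site.

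Lysyl oxidase family genes, which cross-link collagen and elastin outside the cell, were represented by Loxl4 and Loxl3. Loxl4 (chromosome 19, 42593982 to 42612813) fell to 11.1, 11.1 and 8.88 FPKM with sulfasalazine, against 107, 80.3 and 84.5 FPKM in controls. This log2 fold change of -3.01 (SE 0.15, limma adjusted p = 5.3e-06) was -3.11 with a pseudocount of 0.1 FPKM, and the groups did not overlap. Loxl3 had 2.67, 2.57 and 3.17 FPKM with sulfasalazine and 1.02, 1.01 and 1.45 FPKM in controls (log2 fold change 0.82, limma adjusted p = 0.0016). Other genes, mainly Htra2 on the opposite strand, cover 11.6% of its exons. Loxl1 and Loxl2, like Lox, had 10 reads or fewer in every library.

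**Figure D4:**
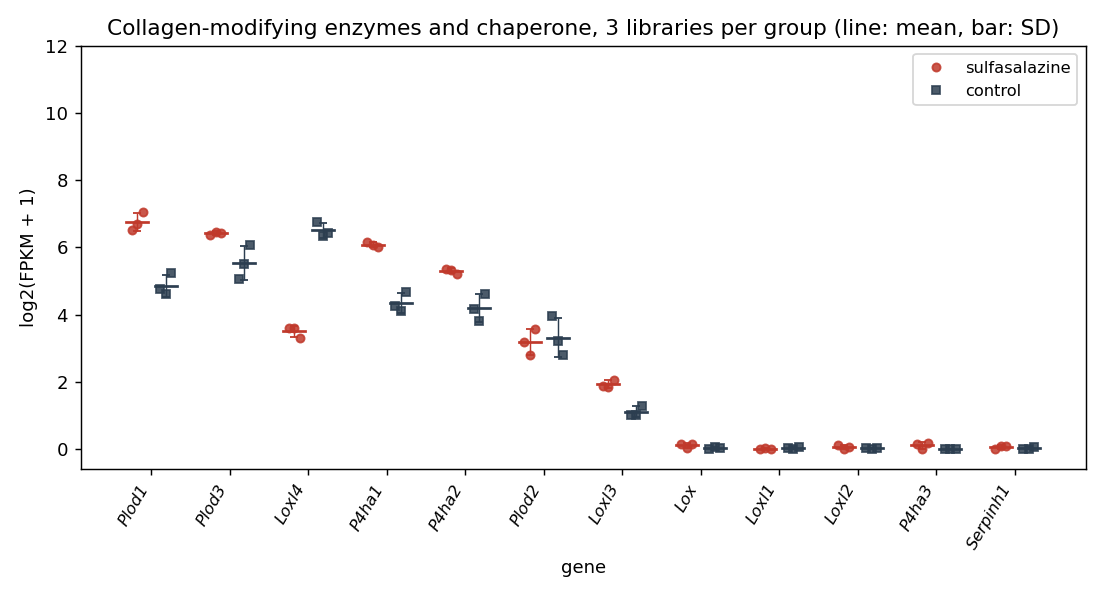
The vertical axis is log2(FPKM + 1) for the collagen-modifying enzymes and Serpinh1, with 3 sulfasalazine libraries (circles) left of 3 control libraries (squares), lines for means and bars for SD. Plod1, P4ha1 and P4ha2 sit higher with sulfasalazine, Loxl4 lower, and Lox, Loxl1, Loxl2, P4ha3 and Serpinh1 lie near 0 in both groups.

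Integrin beta subunits, which set much of an integrin's ligand range, included large changes in both directions. Itgb7 (chromosome 15, 102215995 to 102231944), best known as a leucocyte homing subunit, fell to 10.7, 13.7 and 6.94 FPKM with sulfasalazine, against 346, 234 and 236 FPKM in controls. The log2 fold change was -4.59 (SE 0.24, limma adjusted p = 6.1e-06). Itgae, a partner gene of Itgb7, had at most 9 reads in a library. The macrophage receptor gene Csf1r averaged 0.0396 FPKM with sulfasalazine and 0.0406 FPKM in controls, and Itgb2, the subunit shared by leucocyte integrins, had 3.14, 2.83 and 0.648 FPKM with sulfasalazine and 2.30, 2.45 and 1.36 FPKM in controls (limma adjusted p = 0.97). Cd68, another macrophage marker, was lower with sulfasalazine, at 22.0 ± 5.70 FPKM against 42.6 ± 12.5 FPKM in controls. The osteoclast markers went the other way or were near 0: Acp5 stood at 1.13 ± 0.322 FPKM with sulfasalazine and 0.223 ± 0.179 FPKM in controls, without overlap, and Ctsk at 0.0618 ± 0.05 FPKM with sulfasalazine and 0.022 ± 0.0382 FPKM in controls. Of the 8 macrophage and osteoclast markers 4 were in the table and 1, Cd68, was tested. Summed, they ranged from 17.8 to 28.7 FPKM with sulfasalazine and from 32.0 to 56.3 FPKM in controls, nearly all of it Cd68. The part of such cells in the Itgb7 and Itgb3 values was not tested.

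Itgb3 (chromosome 11, 104608000 to 104670476), a beta subunit of osteoclast and platelet integrins, was nearly silent in controls. It had 1330, 1231 and 1357 reads with sulfasalazine, or 11.8, 11.9 and 13.5 FPKM, and 10, 26 and 27 reads in controls, or 0.0983, 0.240 and 0.324 FPKM. The log2 fold change was 3.46 (SE 0.15, limma adjusted p = 3.4e-06), and 5.35 with a pseudocount of 0.1 FPKM. Itgb5, another partner of the alpha v subunit, had 336, 329 and 340 FPKM with sulfasalazine and 87.0, 84.5 and 134 FPKM in controls (log2 fold change 1.74, SE 0.17, limma adjusted p = 6.9e-05). It was thus the beta subunit gene with the highest level in treated cells, and of its 50-base words 7.3% occur in transcripts of other genes, mainly Gm38317. Itgb8, also an alpha v partner, had 38, 33 and 43 reads with sulfasalazine and 6, 11 and 4 reads in controls, all below the filter.

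Itgb1, the most widely shared beta subunit, had 98.8, 109 and 151 FPKM with sulfasalazine and 209, 202 and 150 FPKM in controls. The groups overlapped by a small margin, since sulfasalazine replicate 3 lay above control replicate 3. The fall by 0.65 on the log2 scale (limma SE 0.19, adjusted p = 0.015) was lost when control replicate 1 or 2 or sulfasalazine replicate 1 or 2 was left out (adjusted p = 0.054 to 0.062). Itgb4, the laminin-binding subunit of hemidesmosomes, had 76.2, 82.6 and 52.4 FPKM with sulfasalazine and 171, 120 and 115 FPKM in controls (log2 fold change -0.93, SE 0.21, limma adjusted p = 0.0046). Exons of other genes, mainly B230344G16Rik on the opposite strand, cover 7.7% of its own.

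Among alpha subunits Itga3 (chromosome 11, 95044474 to 95076801), a laminin receptor chain, was the most abundant in both groups. It rose to 612, 644 and 608 FPKM with sulfasalazine, against 324, 278 and 281 FPKM in controls (log2 fold change 1.08, SE 0.11, limma adjusted p = 7.7e-05). Itga2b, the platelet partner of Itgb3, rose to 5.10 ± 0.360 FPKM, against 1.76 ± 0.492 FPKM in controls (log2 fold change 1.16, limma adjusted p = 0.00049). Itgav, the alpha v chain that pairs with the products of Itgb3 and Itgb5, had 43.3, 40.0 and 54.3 FPKM with sulfasalazine and 110, 100 and 70.2 FPKM in controls. It fell by 1.00 on the log2 scale (limma SE 0.19, adjusted p = 0.0019), opposite to both partners. Exons of other genes, mainly Gm13684 on the opposite strand, cover 5.9% of its own.

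The remaining alpha chains were uneven among controls or did not pass. Itga6, a laminin receptor chain that pairs with the products of Itgb1 and Itgb4, had 28.7, 28.9 and 28.1 FPKM with sulfasalazine and 66.6, 66.5 and 30.2 FPKM in controls. Control replicate 3 lay close to the treated libraries. The call (log2 fold change -0.82, SE 0.28, limma adjusted p = 0.030) was lost without any 1 library other than control replicate 3 (adjusted p = 0.066 to 0.12), and without control replicate 3 the log2 fold change was -1.19 (adjusted p = 1.2e-05). Itga5, the fibronectin receptor chain, had 45.1, 48.6 and 60.9 FPKM with sulfasalazine and 43.3, 40.5 and 64.7 FPKM in controls (limma adjusted p = 0.75). Itga7, a laminin receptor of muscle, had 11.1, 13.1 and 16.7 FPKM with sulfasalazine and 12.5, 16.1 and 38.4 FPKM in controls (limma adjusted p = 0.23). The collagen receptor chains Itga1 and Itga2 had at most 25 reads in a library, and Itga10 stood between 0.423 and 1.09 FPKM.

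**Figure D5:**
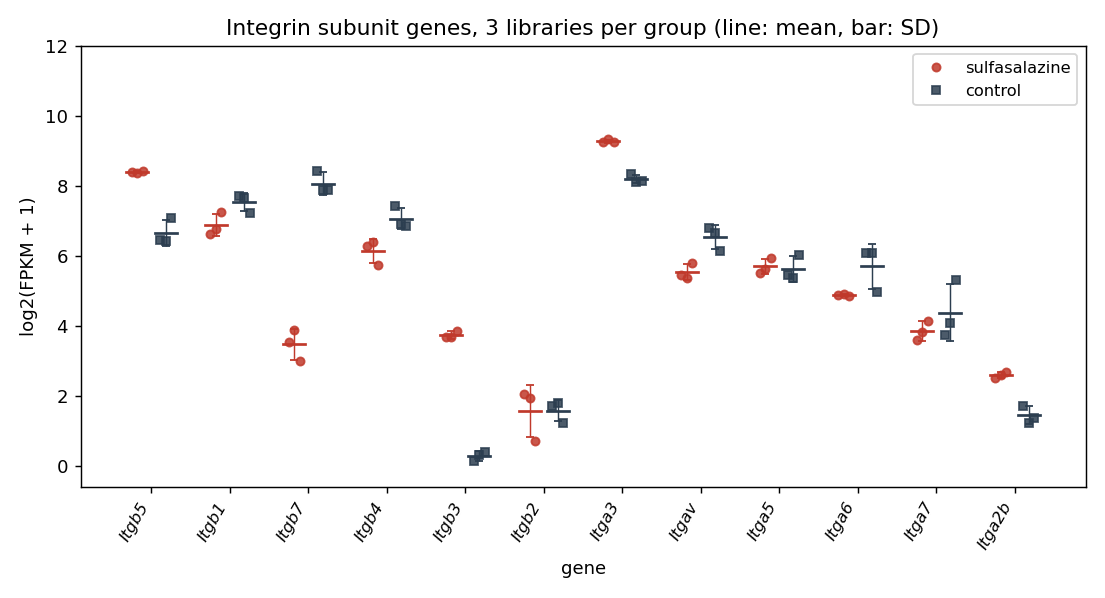
The vertical axis is log2(FPKM + 1) for the 12 expressed integrin genes, beta subunits first, with 3 sulfasalazine libraries (circles) left of 3 control libraries (squares), lines for means and bars for SD. Itgb5, Itgb3, Itga3 and Itga2b sit higher with sulfasalazine, Itgb7, Itgb4 and Itgav lower, and control replicate 3 of Itga6 lies next to the treated libraries.

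Ratios within libraries set the subunits against each other. Itgb5 was 7.78, 8.22 and 6.26 times Itgav with sulfasalazine and 0.792, 0.845 and 1.91 times in controls. Itga3 was 6.20, 5.92 and 4.04 times Itgb1 with sulfasalazine and 1.56, 1.38 and 1.87 times in controls. Neither overlapped (exact permutation p = 0.1 each). For Itgb5 over Itgav this had to follow, since Itgb5 was higher and Itgav lower without overlap. Itga6 over Itgb4 stood at 0.421 ± 0.1 with sulfasalazine and 0.403 ± 0.146 in controls and did overlap. Epithelial markers, some of which are themselves laminin receptors, moved both ways: Krt8 stood at 902 ± 58.1 FPKM with sulfasalazine and 287 ± 33.4 FPKM in controls, and Krt19 at 154 ± 42.9 FPKM with sulfasalazine and 350 ± 43.2 FPKM in controls. Summed over the 14 epithelial markers in the table, the libraries ranged from 1970 to 2210 FPKM with sulfasalazine and from 1440 to 1640 FPKM in controls. Most of these sums came from Krt8 and Krt18, the latter at 913 ± 61.4 FPKM with sulfasalazine and 708 ± 61.1 FPKM in controls. Of the 14, 8 averaged below 1 FPKM. Of 6 tested, 2 were higher and 3 lower, with a median log2 fold change of -0.32, beside 37.2% higher and 29.3% lower of all tested genes. The sums thus do not show a rise of these markers as a set, and their part in the integrin and laminin values was not tested.

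Genes around this family were read from 6 lists of 152 genes. Of 93 tested, 43 rose and 21 fell, 68.8% in all, beside 66.5% of all tested genes, of which 37.2% were higher and 29.3% lower with a median log2 fold change of 0.08. The counts of several lists moved by over 1.5 times when libraries were left out, and cases are given with the lists below. Calls over all genes moved too, from 6878 of 10338 genes with all libraries to 7622 of 10204 without control replicate 3. They numbered 5574 of 10010 without sulfasalazine replicate 2 and 7449 of 9712 without replicate 3 of both groups. A move of a list is therefore not particular to it. Fkbp14, Gpc6 and Ccn5 passed the filter with no control library at 1 FPKM, and Ddr2 and Mrc2 with no sulfasalazine library there, so each had to differ, and their calls add no support to the counts they stand in. Collagen folding and export genes had 11 of 17 higher and 1 lower, with a median log2 fold change of 0.54, and 7 higher without sulfasalazine replicate 2 or without sulfasalazine replicate 3. Their falls numbered 2 without replicate 3 of both groups. Crtap and P3h1, partners in prolyl 3-hydroxylation of collagen, stood at 88.6 ± 4.15 and 38.9 ± 4.21 FPKM with sulfasalazine, against 24.9 ± 6.07 and 10.7 ± 2.36 FPKM in controls. Fkbp14, a collagen-binding peptidyl prolyl isomerase gene that the filter admitted through its treated libraries, stood at 3.99 ± 1.87 FPKM with sulfasalazine and 0.387 ± 0.119 FPKM in controls. P4hb, the common beta subunit of prolyl 4-hydroxylase, also rose (log2 fold change 0.54, limma adjusted p = 0.016), a gene chosen after its value was seen.

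Procollagen processing and collagen degradation genes had 3 of 9 higher and 5 lower. The falls numbered 3 without control replicate 1, control replicate 2 or sulfasalazine replicate 3, and 1 when both libraries numbered 3 were left out. The membrane protease gene Mmp15 rose to 28.6 ± 0.710 FPKM, against 3.94 ± 1.62 FPKM in controls. The collagenase gene Mmp13 fell to 0.685 ± 0.399 FPKM, against 10.6 ± 7.99 FPKM in controls, and the procollagen N-proteinase gene Adamts14 to 3.33 ± 0.239 FPKM, against 18.2 ± 7.17 FPKM. Matrix proteoglycans had 3 of 6 higher and 1 lower, the fall being that of the heparan sulphate carrier Sdc4, at 200 ± 21.2 FPKM with sulfasalazine and 596 ± 50.3 FPKM in controls. The rises numbered 5 without control replicate 3, and 1 when any other single library was left out. Sdc3, another heparan sulphate carrier, had a log2 fold change of 0.86 (limma adjusted p = 0.017). Gpc6, a glypican gene admitted by the filter through its treated libraries, stood at 1.57 ± 0.25 FPKM with sulfasalazine and 0.395 ± 0.0702 FPKM in controls. The small leucine-rich proteoglycan genes Dcn, Bgn and Fmod averaged 0.873 FPKM or less in both groups.

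Matricellular and elastic fibre genes had 7 of 14 higher and 1 lower, with a median of 0.74, and 2 lower without replicate 3 of both groups. Ccn2, encoding connective tissue growth factor, rose to 52.8 ± 6.55 FPKM, against 2.36 ± 1.07 FPKM in controls (log2 fold change 4.05, limma adjusted p = 8.9e-06). Matn2 and Efemp1, encoding matrix adaptor proteins, rose with log2 fold changes of 2.38 and 2.19. The integrin adhesion complex had 17 of 38 higher and 10 lower, with 16 lower without replicate 3 of both groups. Src, encoding the adhesion kinase, fell to 51.3 ± 0.791 FPKM, against 277 ± 11.7 FPKM in controls, and its substrate gene Bcar1 to 40.6 ± 1.22 FPKM, against 160 ± 8.44 FPKM. Lims2, which encodes a PINCH adaptor, fell to 16.0 ± 2.46 FPKM, against 88.1 ± 15.0 FPKM in controls. Among matrix receptors outside the integrins 2 of 9 were higher and 3 lower. Without control replicate 3, or without replicate 3 of both groups, there were 4 higher, and without control replicate 1 or control replicate 2 there was 1 lower. Dag1, encoding dystroglycan, a laminin receptor, rose to 110 ± 9.91 FPKM, against 24.7 ± 3.18 FPKM in controls, and the sarcoglycan gene Sgcb rose by a log2 fold change of 0.58. The collagen receptor gene Ddr2, admitted by the filter through its control libraries, stood at 0.0455 ± 0.0498 FPKM with sulfasalazine and 1.27 ± 0.157 FPKM in controls.

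Between groups, 26 of the 35 tested genes had values that did not overlap, 14 of them higher with sulfasalazine and 12 lower, which is 74.3% beside 71.4% of all tested genes (40.3% higher, 31.1% lower). At an absolute log2 fold change of at least 1 as well as adjusted p under 0.05, 11 rose and 7 fell, 51.4% of the 35 beside 33.2% of all tested genes (19.2% higher, 13.9% lower). Itgb3, Col15a1 and Col8a1, admitted through the group where they were high, stand in these counts and add no support to them. Summed over the 72 genes the level was 3220, 3450 and 3940 FPKM with sulfasalazine and 4540, 3980 and 4890 FPKM in controls. Their share of all reads on genes was 0.897%, 0.963% and 1.11% with sulfasalazine and 1.41%, 1.24% and 1.57% in controls. Fn1 alone gave 399, 404 and 602 FPKM of the sums with sulfasalazine and 1320, 1150 and 1550 FPKM in controls. The lower sums and shares therefore do not show a fall of the family as a whole.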

How the data were processed

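The deposited table holds FPKM values per library computed by the authors, their library-size-adjusted signal per library (deposited, not whole reads), their log2 fold change and their p-value and adjusted p-value. The tools in the submitters' processing notes are HTSeq 0.13.5, fastp 0.23.0, edgeR and HISAT2 2.2.1, beside the build mm39, without their roles. Start and end of all 72 genes equal GENCODE M21 on GRCm38, so coordinates are given on GRCm38. Per the labels' protocols, RNA was extracted with a plant kit and depleted of rRNA with a kit for bacteria.

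FPKM steps gave whole reads for 100.0% of values above 0 (within 0.001 reads), and for 654 genes a multiple was chosen from the authors' signal. Genes reaching 1 FPKM in 3 or more libraries were tested by limma 3.58.1 (R 4.3.3) on log2(FPKM + 1) with an intensity trend, two-sided, Benjamini-Hochberg adjusted. Fold changes are on that scale and understate changes of low genes. Tables were made with Python 3.11.15, pandas 2.3.3 and numpy 2.4.6. Overlaps used exons and 50-base words of GENCODE M21, and the sources used here do not say if counting used strand. The fit was tested on simulated data.

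Members, lists and alternatives were chosen with earlier results of these data known. By rule, the text names the expressed members of each role, at most 8 by level and by size of change, and of each other list up to 3 called genes with the largest change. P4hb, low members, low proteoglycan genes and cell type markers are named beside it. Alternatives were median-of-ratios and quantile scaling, filters of 5 FPKM or none, a pseudocount of 0.1, no trend, a replicate block, leaving out libraries, stricter thresholds, voom on recovered reads and the authors' adjusted p.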

Additional observations from a re-analysis of the deposited data

How the results depend on the processing

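Of the 35 tested genes 19 kept their direction and side of the threshold under each alternative in which they could be fitted, 18 of them called. The counts of 14 rises and 13 falls became 10 and 11 with a filter of 5 FPKM, of 26 tested, beside 5979 calls among 8781 genes. They became 12 to 14 and 10 to 12, of 33 or 34 tested, when a library was left out. Calls over all genes then ran from 5496 of 10002 (without sulfasalazine replicate 1) to 7622 of 10204 (without control replicate 3). A minimum absolute log2 fold change of 1 left 7 falls, 3430 calls over all genes and 34 among the other matrix and adhesion genes (64 without it). The authors' deposited table gave 18 rises and 19 falls among all 72 genes. The share of all genes passing there is not given beside it, so no excess can be read from this count. It also takes in genes too low to judge, such as P4ha3, with at most 5 reads in a library. Median-of-ratios scaling moved the median log2 fold change of all genes by -0.11 and kept 14 rises and 13 falls, beside 6967 calls over all genes. Samples with the same replicate number did not deviate together (correlations 0.036, -0.194 and -0.174), and the replicate block gave 14 rises and 13 falls, and 6420 calls over all genes. Directions that turned all belonged to genes that did not pass. Itgb2 ranged from -0.25 to 0.41 with a library left out, with 0.24 without replicate 3 of both groups and 0.032 in the authors' deposited table. Itga5 ranged from -0.0499 to 0.28 with a library left out, and gave -0.0485 under median-of-ratios scaling and -0.045 in the authors' deposited table. The leave-one-out ranges were -0.36 to 0.039 for Col18a1, -0.35 to 0.11 for Col11a2 and -0.39 to 0.18 for Plod2. The cause of these changes was not tested. Genes with fewer than 10 reads per library cannot be judged at this depth.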
